A study of Mus musculus with 8 samples.

Results

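The 48 genes described here are the core of the Wnt signalling pathway as it is annotated in the mouse: 19 Wnt ligands, 10 Frizzled receptors, the co-receptors Lrp5 and Lrp6, 3 Dishevelled proteins, 4 genes of the β-catenin destruction complex, β-catenin itself (Ctnnb1), 4 transcription factors of the TCF/LEF family and 5 secreted inhibitors. The rule names them by gene and role and uses no peak value, and they make up 48 of the 21883 protein-coding genes of the annotation used. The cells were mouse embryonic fibroblasts (MEF), profiled by ChIP-seq (sequencing of DNA immunoprecipitated with a chromatin protein). They were primary cells of C57BL/6 embryos at stage E15.5, grown in serum for 2 to 4 passages and either wild type for Hmga2 (Hmga2 wt) or Hmga2 knockout (Hmga2 Ko). Of the 8 libraries, 3 were used: HMGA2, γ-H2AX (H2AXS139ph in the labels) and ATM, all from Hmga2 wt cells, with 1 library per antibody. The values below are peak calls, so they give positions and not amounts, and no replicate error or test between libraries could be given. A peak list holds no expression level, and the labelled fibroblast identity was therefore not checked against marker genes; neither can the share of cells that carried a given peak be read from it.

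Wnt ligands are secreted, lipid-modified glycoproteins that bind Frizzled receptors together with Lrp5 or Lrp6. In the absence of ligand, the destruction complex, built on Apc and the Axin scaffolds, lets the kinase Gsk3b and its partners mark β-catenin for degradation. Bound receptors recruit Dishevelled and Axin, β-catenin builds up and enters the nucleus, and there it serves as coactivator of TCF/LEF factors; other ligands, Wnt5a and Wnt11 among them, mostly act through routes without β-catenin. In fibroblasts and their mesenchymal relatives the pathway is known for roles in proliferation, matrix production and the choice between bone, cartilage and fat. HMGA2 is a small chromatin protein whose AT-hooks hold the minor groove of A+T-rich DNA, ATM is a kinase activated by DNA breaks, and γ-H2AX is the histone variant H2AX after phosphorylation by ATM or related kinases. The series, by its title, is about a role of γ-H2AX in transcription driven by HMG proteins, and the question addressed below is where the 3 proteins were found at the genes of this pathway.

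The sequences of 4 promoters are shown first, to place peaks at or near transcription starts. The promoter table of RefSeq (assembly GRCm38.p6, to which the mm10 coordinates belong) gives 300 bp windows, from 250 bp before to 50 bp after a start, and held 43 promoters of 34 of the 48 genes. In 3 of these promoters a peak of any antibody lay within the printed bases, and they are shown with the bases under the peak in capitals, 5′ to 3′ on the strand of the gene. The fourth, the first promoter of Lef1, is shown because a γ-H2AX peak with a score of 36.5 lay 643 bp before its start, outside the window, and it has no capitals. The score is the value the authors gave each peak, -10 times the log10 of its p, with 20 as the threshold, and 36.5 was the highest within 1 kb of an annotated end of any of the 48 genes.
Wnt5b, HMGA2 peak, chr6:119467162-119467461, minus strand: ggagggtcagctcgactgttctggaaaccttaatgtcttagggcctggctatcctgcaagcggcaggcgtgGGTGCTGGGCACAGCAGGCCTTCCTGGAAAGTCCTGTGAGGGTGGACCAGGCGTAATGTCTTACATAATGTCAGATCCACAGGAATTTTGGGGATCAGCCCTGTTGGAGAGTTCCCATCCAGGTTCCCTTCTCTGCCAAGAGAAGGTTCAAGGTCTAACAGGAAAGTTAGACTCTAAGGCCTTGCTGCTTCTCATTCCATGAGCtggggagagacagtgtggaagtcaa
Wnt11, γ-H2AX peak, chr7:98834862-98835161, plus strand: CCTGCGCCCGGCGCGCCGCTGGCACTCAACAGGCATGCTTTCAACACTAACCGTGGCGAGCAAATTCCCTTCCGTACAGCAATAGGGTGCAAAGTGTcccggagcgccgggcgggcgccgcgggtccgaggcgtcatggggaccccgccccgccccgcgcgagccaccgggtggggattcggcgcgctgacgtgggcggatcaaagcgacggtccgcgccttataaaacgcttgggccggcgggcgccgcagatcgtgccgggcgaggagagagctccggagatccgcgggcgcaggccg
Tcf7l2, γ-H2AX peak, chr19:55895071-55895370, plus strand: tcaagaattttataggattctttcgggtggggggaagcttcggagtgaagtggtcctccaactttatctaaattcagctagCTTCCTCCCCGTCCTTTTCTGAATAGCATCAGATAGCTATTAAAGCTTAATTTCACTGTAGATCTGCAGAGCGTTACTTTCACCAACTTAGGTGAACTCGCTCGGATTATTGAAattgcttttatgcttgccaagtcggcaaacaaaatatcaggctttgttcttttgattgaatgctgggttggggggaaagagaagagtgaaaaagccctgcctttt
Lef1, no peak within the window, chr3:131110047-131110346, plus strand: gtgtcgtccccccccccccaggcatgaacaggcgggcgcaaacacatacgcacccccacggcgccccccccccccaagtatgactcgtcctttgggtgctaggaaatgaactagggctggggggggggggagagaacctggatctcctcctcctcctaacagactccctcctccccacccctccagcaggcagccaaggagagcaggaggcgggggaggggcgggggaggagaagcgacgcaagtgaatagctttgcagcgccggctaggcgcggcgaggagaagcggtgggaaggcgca

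The 4 promoters differed in base composition. The Wnt5b window was 47% A+T with 4 CpG dinucleotides, and 204 of its 300 bases lay under the HMGA2 peak. The Wnt11 window was 28.7% A+T with 45 CpG, and its 97 bases under the γ-H2AX peak, at the far upstream end, were 41.2% A+T. At Tcf7l2 the start is an internal one, deep in the gene, and the window was 58% A+T, the highest share among the 43 promoters of the pathway. The first Lef1 promoter was 32.7% A+T.

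Promoters of the pathway were poor in A+T as a group. Their median A+T share was 30%, against 43.7% over all 21262 promoters of coding genes, and the ligands had a median of 29%. Promoters touched by an HMGA2 peak anywhere in the genome had a median of 54%, those touched by γ-H2AX 44% and those touched by ATM 46.8%. The 6-base sequence AATATT, a run of A and T searched on both strands (it is its own reverse complement), was in none of the 43 promoters, in 6.00% of all promoters and in 16.4% of those under an HMGA2 peak. CTTTGA, the core of the sequence bound by TCF/LEF factors, was searched on both strands (TCAAAG on the other) and was in 6 of the 43 promoters, or 14.0%, close to the 14.4% over all promoters. One copy, on the reverse strand as TCAAAG, is in the Wnt11 window outside the bases under the peak. These are matches of letters and not shown sites.

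Within 1 kb of a transcription start, γ-H2AX was found at 6 of the 34 genes with a listed start, HMGA2 at 2 and ATM at 3. Over the 17491 coding genes of the promoter table the shares were 17.5% (γ-H2AX), 10.2% (HMGA2) and 9.98% (ATM), so the counts of the pathway were near or under the background. The γ-H2AX genes were Wnt1, Wnt5b, Wnt11, Fzd10, Lef1 and Tcf7l2. HMGA2 lay at starts of Wnt5b and Ctnnb1, and ATM at starts of Wnt5b, Wnt11 and Tcf7l1. Wnt5b, which has several starts, was the one gene with peaks of all 3 antibodies within 1 kb of a start, each at a different start.

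The lists of promoters that the authors deposited for γ-H2AX and ATM were also searched for these genes. A γ-H2AX promoter region lay by a start of Wnt5b, Wnt11, Fzd10, Lef1 and Tcf7l2, at distances of 538, 492, 968, 643 and 113 bp and with peak scores of 23.4, 20.5, 26.7, 36.5 and 29.8. All of them are among the 34 genes with a listed start. The share of all coding genes with a listed region by a start was not computed. Windows at gene ends miss internal starts, such as those of Wnt5b and Tcf7l2. Counted at annotated gene ends, the γ-H2AX list touched 2 of the 48 genes within 1 kb (Fzd10 and Lef1), where 9.03% of all coding genes were touched, and 3 within 5 kb, where 11.3% were. The ATM list touched none of the 48 within either distance, against 3.45% and 4.45% of all coding genes. Its one region at a start was at the internal start of Tcf7l2, chr19:55894724-55894890, 514 bp from that start and beside the γ-H2AX region. This region matched no peak of the ATM list, whose nearest peak was 15121 bp away; 78 of the 866 regions of the ATM promoter list matched no deposited ATM peak, whereas all 2220 regions of the γ-H2AX list were deposited peaks.

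**Figure D1:**
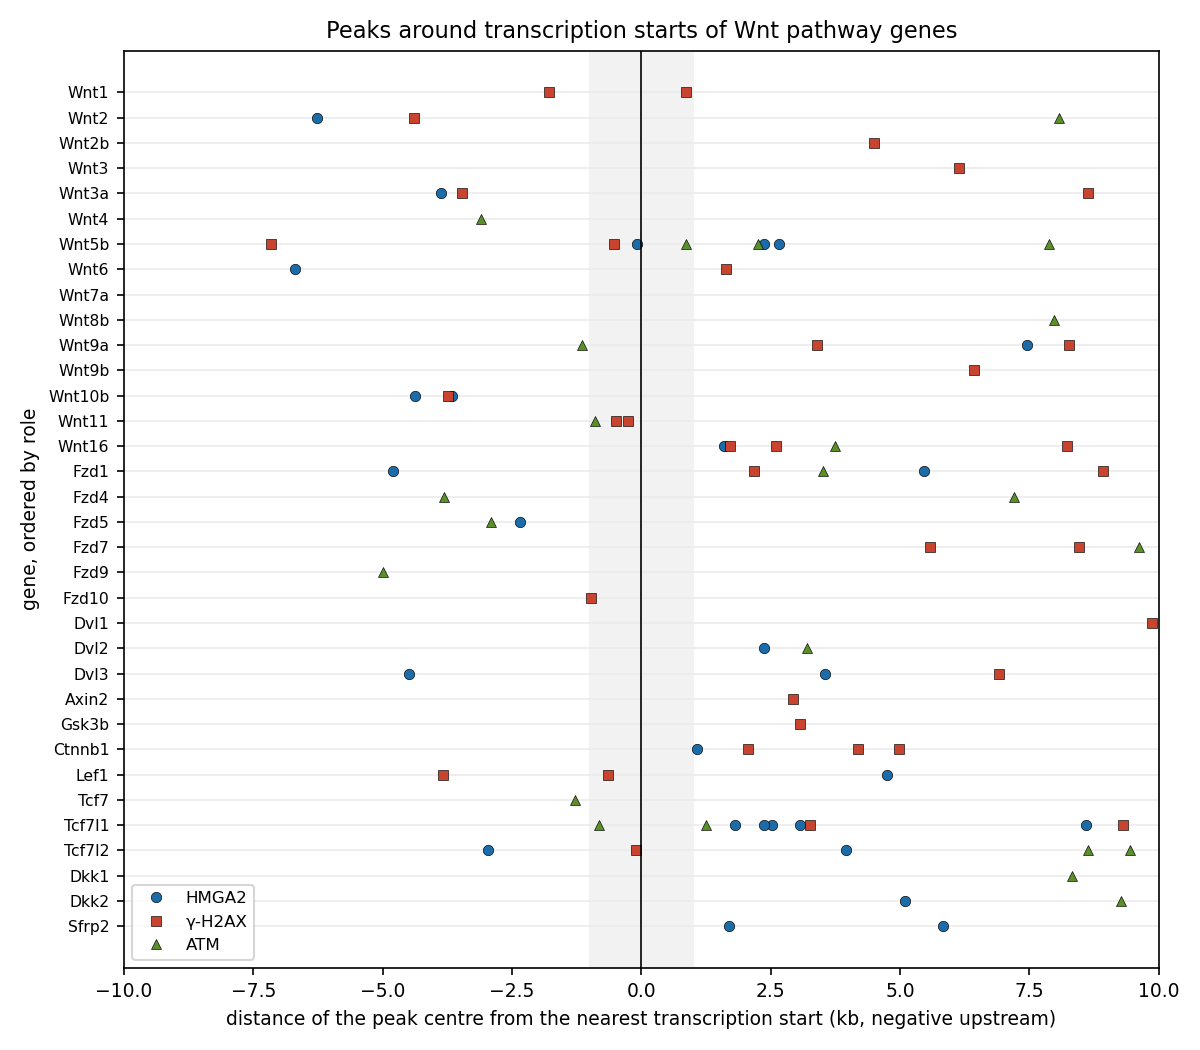
Peaks around transcription starts of pathway genes. The x axis is the distance of the peak centre from the nearest listed start in kb, negative upstream, each row is a gene with a listed start in order of role, symbols mark the antibody and the grey band is 1 kb to either side. Wnt5b and Wnt11 have the most symbols in the band, and most rows have none there; the HMGA2 peak of Ctnnb1 has its edge, but not its centre, within the band.

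Most peaks at the pathway lay inside the long genes, away from starts. In the gene bodies with 5 kb added at both ends, there were 137 HMGA2 peaks, 167 γ-H2AX peaks and 116 ATM peaks. Since a longer gene meets more peaks, each gene was set beside the 1000 coding genes nearest to it in length, and the mean numbers of those genes were added up. This length-matched number was 142.9 (HMGA2), 150.4 (γ-H2AX) and 117.9 (ATM), which gives ratios of 0.959 (95% Poisson interval 0.805 to 1.13), 1.11 (0.948 to 1.29) and 0.983 (0.813 to 1.18). The intervals cover counting error only and treat peaks as independent, which neighbouring peaks may not be. Single genes of like length spread more widely than counting error. At the length of Lrp6, for example, the 10th to 90th percentile was 2 to 15 HMGA2 peaks around a mean of 8.19. The intervals are thus too narrow for differences between genes, here and below. Each of the 3 intervals included 1, the level of genes of like length.

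By gene rather than by peak, 29 of the 48 had an HMGA2 peak in the body or within 5 kb, against 65.1% of all coding genes and a length-matched number of 33.7. For γ-H2AX the number was 38, against 70.3% and 36.8, and for ATM 39, against 67.3% and 35.1. In the bodies alone, the counts were 23 for HMGA2 (49.4% of all coding genes, length-matched number 27.8), 33 for γ-H2AX (55.2%, 30.6) and 26 for ATM (51.7%, 29.1). Within 5 kb of an annotated end, they were 23 (52.3%, 26.1), 30 (58.5%, 29.9) and 28 (52.3%, 26.2) in the same order. Within 1 kb of an end, they were 7 (17.9%, 8.97), 11 (23.3%, 12.1) and 10 (16.1%, 8.12). Each of these counts differed from its length-matched number by fewer than 5 genes.

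All of the 48 genes had a peak of at least 1 antibody in the body or within 5 kb. A single antibody was found at 13 of them, 2 antibodies at 12 and all 3 at 23, where length-matched numbers were 7.83, 12.0 and 24.6, and 3.58 for no antibody. Within 1 kb of an end, 26 genes had no peak, 16 had peaks of 1 antibody and 6 of 2 (Wnt11, Fzd1, Fzd2, Fzd3, Lrp6 and Gsk3b), against length-matched numbers of 25.3, 16.8 and 5.25, and no gene had all 3. The 3 shortest genes, Fzd9 (2.11 kb), Fzd10 (2.99 kb) and Fzd8 (3.35 kb), had 1 peak each: ATM at Fzd9, γ-H2AX at Fzd10 and HMGA2 at Fzd8. The 3 longest, Tcf7l2 (192 kb), Tcf7l1 (163 kb) and Gsk3b (157 kb), had 7, 16 and 17 HMGA2 peaks, 19, 13 and 16 γ-H2AX peaks, and 10, 12 and 11 ATM peaks.

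**Figure D2:**
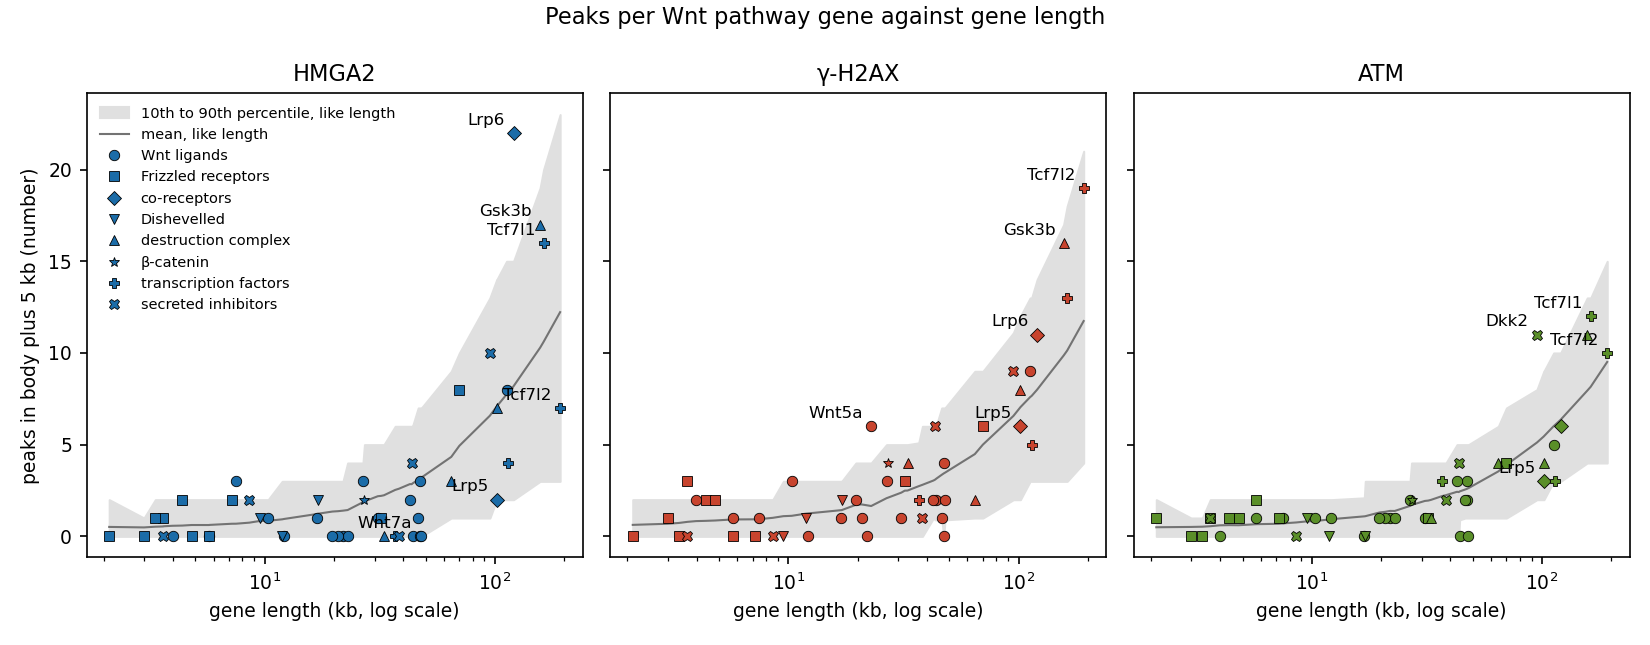
Peaks per gene against gene length. The x axis is gene length in kb on a log scale, the y axis the number of peaks in the body plus 5 kb, each symbol is a gene with its shape giving the role, and line and band give the mean and the 10th to 90th percentile of the 1000 coding genes nearest in length. Lrp6 with 22 HMGA2 peaks, Wnt5a with 6 γ-H2AX peaks and Dkk2 with 11 ATM peaks lie above the band. Wnt10b (HMGA2) and Fzd2 (γ-H2AX) lie just above it, and no other gene does for any antibody. Up to 10% of genes of like length lie above it too, so genes above the band were not more common here than the percentile implies.

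The Wnt ligands had fewer HMGA2 peaks than genes of their length. The 19 ligands held 23 HMGA2 peaks in bodies and 5 kb flanks where the length-matched number was 40.5, a ratio of 0.567 (0.360 to 0.851), or 2.96 peaks per 100 kb. For γ-H2AX the same genes held 41 peaks against 45.2 (0.906, 0.651 to 1.23), and for ATM 26 against 35.1 (0.740, 0.484 to 1.08). In the bodies alone the HMGA2 ratio was 0.537 (0.313 to 0.860), beside 0.903 (0.613 to 1.28) with γ-H2AX and 0.601 (0.344 to 0.976) with ATM. Whether the ratio of HMGA2 differs from those of the other antibodies was not tested.

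The low HMGA2 number was spread over the ligands. An HMGA2 peak lay at 9 of the 19, where the length-matched number was 13.3 and 65.1% of all coding genes had one. The 10 without were Wnt1, Wnt3, Wnt4, Wnt5a, Wnt7a, Wnt8a, Wnt8b, Wnt9b, Wnt10a and Wnt11. Of these, Wnt1 and Wnt8a are short, with a median of 0 for their length, so a lack of peaks is usual there. The 10th percentile of genes of like length was 0 for all 10, so none of them alone lay below it. Against the median of genes of like length, 10 ligands were below, 6 were equal and 3 were above. Within 5 kb of an end, 5 ligands had an HMGA2 peak (Wnt2, Wnt2b, Wnt3a, Wnt10b and Wnt16), where the length-matched number was 10.5, and within 1 kb only Wnt2b did, where it was 3.51. That peak, with a score of 21.5, also lies in St7l, the neighbouring gene. Without Wnt5b, the ligand with the most HMGA2 peaks, the ratio stayed under 1, as it did under each other setting tried (0.328 to 0.654).

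Base composition and surroundings were set beside this low number. The ligand promoters had a median A+T share of 29%, near the 30% of all 43. Those of the 6 Frizzled genes with a listed promoter (25.8%), the Dishevelled genes (27.7%) and Ctnnb1 (24.8%) were lower. The HMGA2 ratio of 1.28 at Frizzled genes is over all 10 of them. Fzd3, which has no listed promoter, held 8 of their 15 HMGA2 peaks, so the 2 values cover unlike sets of genes. Of the 19 ligands, 13 could be set beside coding genes of like length and like promoter A+T share. Their ratio for HMGA2 was 0.662 by length and 0.618 by length and A+T. The median promoter A+T share of these 13 was 33.7%, above the 29% of all listed ligand promoters. The match used promoters alone, while peaks were counted over bodies and 5 kb flanks. In the stretches from 5 kb to 100 kb outside the ligand genes, HMGA2 had 187 peaks against 167.1 for genes of like length, a ratio of 1.12, with 1.17 for γ-H2AX and 1.07 for ATM. The stretches were summed gene by gene. Those of ligands that are neighbours in the genome overlap, so some peaks were counted more than once. The HMGA2 number was thus low in the ligand genes and their near flanks and not in the wider region around them. Whether these values bear on the low number was not tested.

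Some ligands departed from the group. Wnt5b had 8 HMGA2 peaks, 9 γ-H2AX peaks and 5 ATM peaks over 112 kb, near the length-matched means of 7.74, 7.59 and 6.01. Wnt10b, a ligand known for holding back fat cell formation, is 7.495 kb long and had 3 HMGA2 peaks in its flanks, above the 90th percentile of 2 for its length, with 1 peak each of γ-H2AX and ATM. Wnt5a, the main ligand of the routes without β-catenin in mesenchyme, had no HMGA2 peak, 6 γ-H2AX peaks and 1 ATM peak over 22.9 kb. The 6 γ-H2AX peaks were above the 90th percentile of 4, and 5 of them lay within 8.63 kb, from 4.73 to 13.4 kb above the lower annotated end. Their scores were from 20.9 to 24.6, and 5 of the 6 were below the median of the whole list, 23.6.

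The other ligands had between 0 and 4 peaks of any antibody. Wnt2, known for lung development, had 3, 4 and 3 peaks of HMGA2, γ-H2AX and ATM. Wnt3a, a standard ligand of the β-catenin route, had 2, 2 and 3. Wnt6 had 1 peak of each antibody and Wnt7b 1, 1 and 2, and the γ-H2AX peak of Wnt6, chr1:74773383-74773668, had a score of 44.4, the highest γ-H2AX score at any of the 48 genes. Wnt9a, a ligand of joint development, had 3, 3 and 2, and Wnt16, known for cortical bone, had 1, 3 and 1 within 10.3 kb. At Wnt3 and Wnt9b, whose annotated ends overlap, there was no HMGA2 and no ATM peak, below the ATM 10th percentile in both genes, and 1 of their γ-H2AX peaks was counted at both.

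Within 1 kb of an end, ATM peaks were at 5 ligands and HMGA2 peaks at 1, a difference that was not tested. The ATM peaks lay at Wnt2, Wnt7a, Wnt9a, Wnt10a and Wnt11, with scores of 27.3, 20.8, 25.03, 22.6 and 20.5, where the length-matched number was 3.28. γ-H2AX peaks lay there at Wnt1 (23.8), Wnt5b (25.6) and Wnt11 (20.9), where it was 4.79. Wnt7a, a signal of the dorsal limb, had no other peaks than 2 of ATM over 47.4 kb. Several ligands are paired in the genome: Wnt6 and Wnt10a are 6.70 kb apart, Wnt10b and Wnt1 11.7 kb and Wnt3a and Wnt9a 16.1 kb. Of these pairs, only the 5 kb flanks of Wnt6 and Wnt10a meet, and no peak was counted at both genes of a pair.

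The 10 Frizzled receptors, the membrane proteins that bind the ligands, had ratios above 1 that their intervals did not set apart from 1. HMGA2 had 15 peaks against 11.7 (1.28, 0.715 to 2.11), γ-H2AX 17 against 13.9 (1.22, 0.713 to 1.96) and ATM 12 against 10.5 (1.14, 0.590 to 2.00). Fzd3 held 8 of these HMGA2 peaks, and without it the HMGA2 ratio was 1.03. Within 1 kb of an end, 3 Frizzled genes had an HMGA2 peak (Fzd1, Fzd3 and Fzd8, with scores of 22.8, 21.0 and 28.5), 4 a γ-H2AX peak (Fzd2, Fzd3, Fzd7 and Fzd10) and 2 an ATM peak (Fzd1 and Fzd2), against length-matched numbers of 1.62, 2.37 and 1.59. Counted as peaks, these were ratios of 1.60 (0.331 to 4.69), 1.80 (0.586 to 4.21) and 1.14 (0.138 to 4.11), and all 3 intervals include 1. In the stretches from 5 to 100 kb outside, the ratios at Frizzled genes were 1.36 (HMGA2), 1.60 (γ-H2AX) and 1.14 (ATM).

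At Fzd2, a gene of 3.63 kb, 3 γ-H2AX peaks lay beyond the upper end with centres within 1.33 kb of each other, above the 90th percentile of 2 for its length. The first of them, chr11:102608497-102608644 with a score of 30.1, overlapped the ATM peak chr11:102608410-102608538, with a score of 27.9. Fzd3, known for axon guidance and planar polarity, is the longest Frizzled gene at 70.0 kb and had 8 HMGA2, 6 γ-H2AX and 4 ATM peaks, against length-matched means of 4.94, 5.002 and 3.90. Just inside its lower end an HMGA2 peak and a γ-H2AX peak lay 54 bp apart. Fzd1 had 2, 2 and 1 peaks and Fzd6, which shares the polarity role of Fzd3, had 1, 3 and 1. Fzd4, also the receptor of Norrin in the retina, had 2 ATM peaks and no other, Fzd5 had 2 HMGA2 and 1 ATM peak, and Fzd7 had 2 γ-H2AX peaks and 1 ATM peak.

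The co-receptors Lrp5 and Lrp6, close relatives in sequence and function, differed from each other. Lrp6 had 22 HMGA2 peaks, 11 γ-H2AX peaks and 6 ATM peaks over 120 kb, and Lrp5, known for its effect on bone mass, had 2, 6 and 3 over 102 kb. The HMGA2 peaks of Lrp6 were above the 90th percentile of 15 for genes of its length, whose mean was 8.19. Those of Lrp5 were at the 10th percentile of 2, with a mean of 7.08. For γ-H2AX and ATM both genes lay between the 10th and 90th percentiles. The combined ratio of the pair for HMGA2, 1.57 (1.01 to 2.34), was therefore carried by Lrp6.

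At Lrp6, 18 HMGA2 peaks lay in the body and 4 in the flanks, with none in the first 22.9 kb of the body above the lower annotated end. Their scores were from 20.4 to 36.0, and the highest lay outside the gene, about 4 kb below its lower annotated end. There the peaks of all 3 antibodies overlapped: HMGA2 at chr6:134442395-134442516 with a score of 36.0, γ-H2AX at chr6:134442311-134442549 with a score of 36.1 and ATM at chr6:134442396-134442555 with a score of 22.3. It was the one place at the 48 genes where all 3 did. A second HMGA2 peak began 12 bp beyond the γ-H2AX peak.

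**Figure D3:**
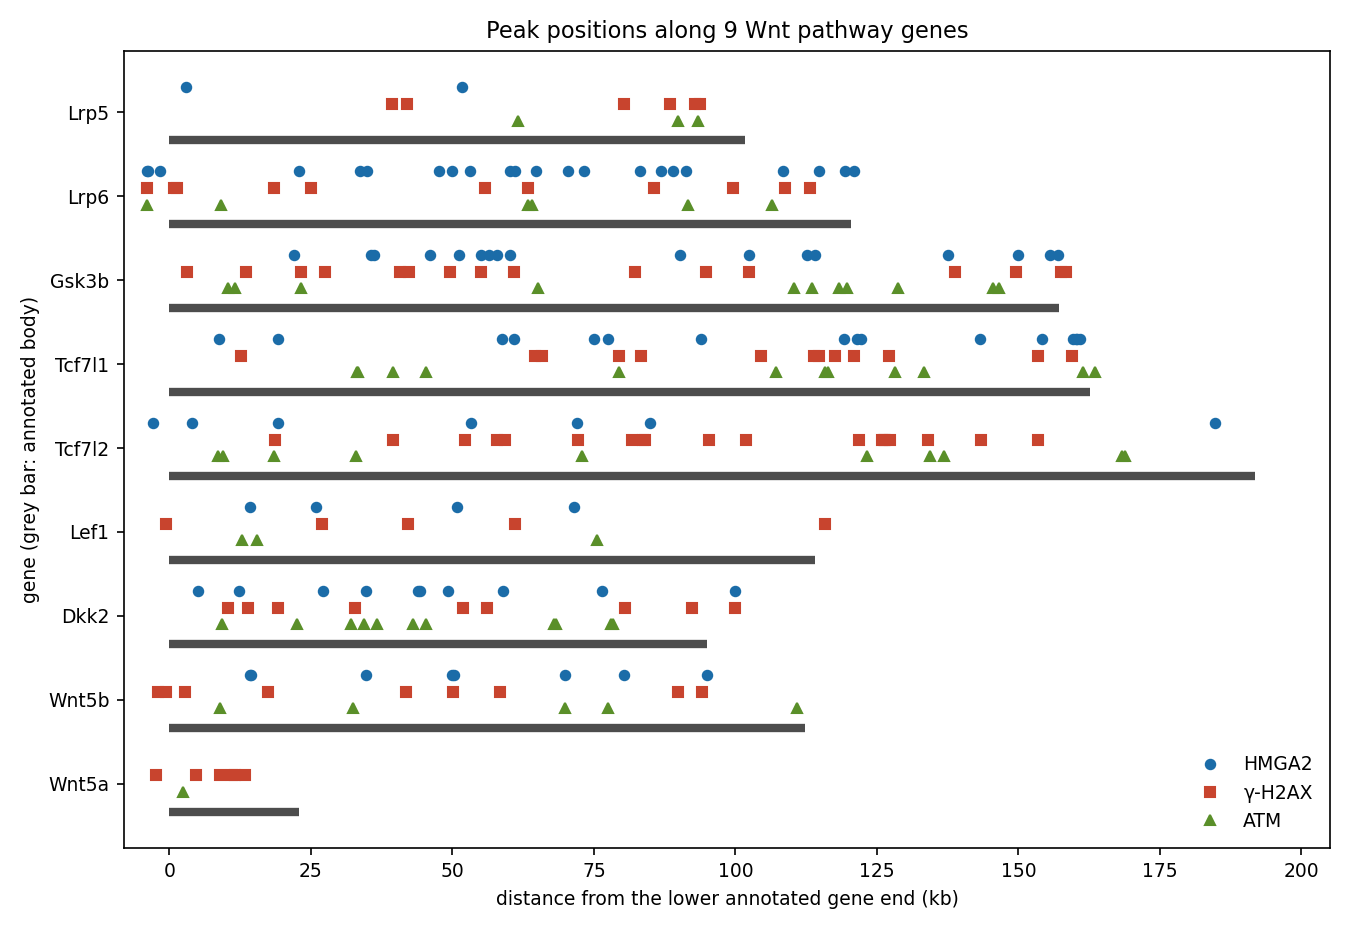
Positions of peaks along 9 genes. The x axis is the distance of the peak centre from the lower annotated gene end in kb, grey bars are the annotated bodies, and symbols mark the antibody. Lrp6 has 22 HMGA2 peaks, none of them in the first 22.9 kb of its body, and Lrp5 has 2, and the γ-H2AX peaks of Wnt5a lie in the lower part of that gene.

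The 3 Dishevelled genes, which carry the signal from the receptors into the cell, are short and had few peaks. HMGA2 had 3 peaks against 3.002, γ-H2AX 3 against 3.77 and ATM 1 against 2.83. None of them lay within 1 kb of an end. Dvl1 had 1 γ-H2AX peak (score 29.7), Dvl2 had 1 HMGA2 and 1 ATM peak, and Dvl3 had 2 HMGA2 and 2 γ-H2AX peaks. The HMGA2 peak of Dvl2, chr11:70002884-70003032, lay 2366 bp into the gene from its start and had a score of 36.1.

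The destruction complex held 27 HMGA2 peaks against 24.0 (1.13, 0.743 to 1.64), 30 γ-H2AX peaks against 23.9 (1.26, 0.847 to 1.79) and 20 ATM peaks against 18.9 (1.06, 0.645 to 1.63). Gsk3b, the kinase, gave more than 1 in 2 of these peaks for each antibody: 17 HMGA2, 16 γ-H2AX and 11 ATM peaks, all at or under the 90th percentiles of 19, 17 and 13. Without Gsk3b the HMGA2 ratio of the group was 0.732. In Gsk3b, 5 HMGA2 peaks lay between 51.2 and 60.2 kb from the lower end, with scores from 21.4 to 24.3, and 3 γ-H2AX peaks had scores of 37.3, 40.1 and 39.8.

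Apc and the Axin scaffolds had other patterns. Apc, of 102 kb, had 7 HMGA2, 8 γ-H2AX and 4 ATM peaks, and it was the one gene of the 48 with an HMGA2 peak within 1 kb of both ends, with scores of 22.5 and 26.5. Its ATM peak of 401 bp had a score of 47.9, the highest ATM score at the pathway. Axin1, the constant scaffold, had 3, 2 and 4 peaks, and all 3 HMGA2 peaks lay within 1.71 kb. Axin2, a feedback target of β-catenin, had no HMGA2 peak, 4 γ-H2AX peaks and 1 ATM peak over 33.0 kb, and one γ-H2AX peak lay 963 bp beyond its upper end (score 29.4). No ATM peak lay within 5 kb of an end of any of the 4 genes, where the length-matched number was 2.42.

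Ctnnb1, which encodes β-catenin, had 2 HMGA2, 4 γ-H2AX and 2 ATM peaks over 27.1 kb, against length-matched means of 1.91, 2.11 and 1.71. Of the γ-H2AX peaks, 3 lay within 2.90 kb near the start of the gene. An HMGA2 peak, with a score of 24.6, lay 1066 bp downstream of the start by its centre, and an ATM peak lay inside the gene near the other end (24.2).

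The 4 TCF/LEF factors had HMGA2 and γ-H2AX numbers on opposite sides of those of like length, neither set apart by its interval. HMGA2 had 27 peaks against 33.2 (0.814, 0.536 to 1.18), γ-H2AX 39 against 32.3 (1.21, 0.859 to 1.65) and ATM 28 against 26.0 (1.08, 0.717 to 1.56). The members differed from each other. Tcf7l1, mostly a repressor when β-catenin is absent, had 16 HMGA2, 13 γ-H2AX and 12 ATM peaks. Tcf7l2, the factor linked to the risk of type 2 diabetes in people, had 7, 19 and 10. Lef1 had 4, 5 and 3, and Tcf7, a factor of T cells and others, had 0, 2 and 3.

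Tcf7l1 gave 16 of the 27 HMGA2 peaks of the group, and without it the ratio was 0.487. Of these, 5 lay between 154 and 161 kb from the lower end, which is close to the start, since the gene is on the minus strand. One of them, chr6:72785845-72786105, had a score of 37.8, the highest HMGA2 score at the 48 genes. In Tcf7l2, 5 γ-H2AX peaks lay within 5.60 kb, from 122 to 127 kb above the lower end and about 30 kb before the internal start whose promoter is printed above. Lef1 had its highest γ-H2AX score, 36.5, before its first start, and an ATM peak with a score of 41.1 lay 12.8 kb into the gene.

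The 5 secreted inhibitors had more ATM peaks than genes of like length by point estimate. ATM had 18 peaks against 11.1 (1.62, 0.962 to 2.57), and in bodies alone 16 against 8.89 (1.80, 1.03 to 2.92). HMGA2 had 16 against 13.3 (1.203, 0.687 to 1.95) and γ-H2AX 16 against 14.3 (1.12, 0.641 to 1.82). Dkk2, which binds Lrp5 and Lrp6, gave most of them, with 10 HMGA2, 9 γ-H2AX and 11 ATM peaks over 95.0 kb, and its ATM peaks were above the 90th percentile of 8. Without Dkk2, 7 ATM peaks were left and the ratio was 1.17, with 0.892 for HMGA2 and 0.909 for γ-H2AX. In the stretches from 5 to 100 kb outside these genes the ratios were 1.74 (HMGA2), 1.499 (γ-H2AX) and 1.40 (ATM). No peak lay within 1 kb of an end of these 5 genes.

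Dkk3, the divergent member of its family, had 4 HMGA2, 6 γ-H2AX and 4 ATM peaks, among them a γ-H2AX peak with a score of 42.4. Dkk1, a target of β-catenin and an inhibitor of Lrp6, had 1 ATM peak and no other within 3.62 kb and its flanks. Sfrp1 and Sfrp2, which bind Wnt ligands in the extracellular space, differed: Sfrp1 had 1 γ-H2AX and 2 ATM peaks and no HMGA2, and Sfrp2 had 2 HMGA2 peaks and no other.

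**Figure D4:**
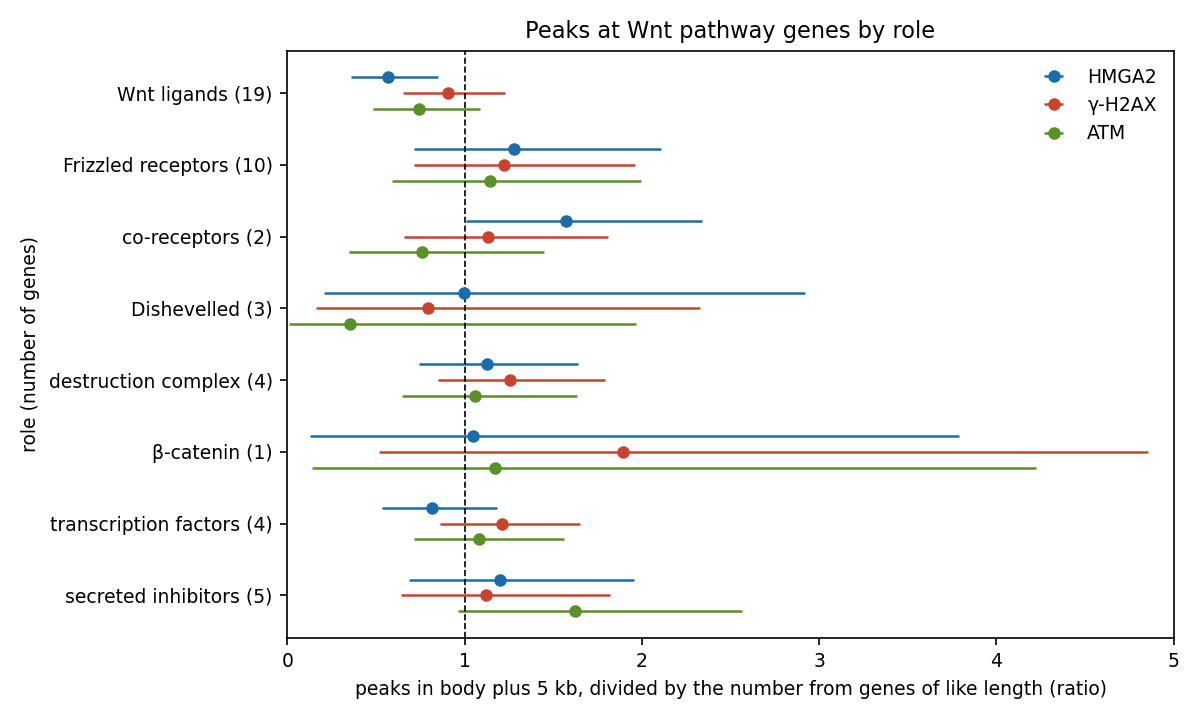
Peaks by role in the pathway. The x axis is the number of peaks in bodies plus 5 kb divided by the number from genes of like length, rows are roles with the number of genes, points are ratios for each antibody, bars are exact 95% Poisson intervals and the dashed line is a ratio of 1. Wnt ligands for HMGA2 (0.567) lie below the line with their whole interval and the co-receptors for HMGA2 (1.57) just above it. The other intervals reach across the line. The bars leave out the spread between genes and were not adjusted for the number of roles and antibodies.

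Peaks of different antibodies overlapped at the pathway most often for HMGA2 and γ-H2AX. Of the 137 HMGA2 peaks, 14 (10.2%) overlapped a γ-H2AX peak by at least 1 bp, at 12 genes. Genes of like length gave 4.78, a ratio of 2.93 (1.60 to 4.91), and over the whole HMGA2 list 2.67% of peaks overlapped γ-H2AX. Seen from the other list, 13 of the 166 γ-H2AX peaks at the pathway (7.83%) overlapped HMGA2, where the whole list had 3.26%. For HMGA2 with ATM the number was 2 (1.46% of the HMGA2 peaks) against 3.57, and for γ-H2AX with ATM 8 (4.82% of the γ-H2AX peaks) against 3.98, a ratio of 2.01 (0.867 to 3.96).

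The overlaps of HMGA2 and γ-H2AX fell on every part of the pathway except Dishevelled and β-catenin. By role, 5 were at ligands (2 at Wnt5b and 1 each at Wnt9a, Wnt10b and Wnt16), 2 at Frizzled receptors (Fzd3 and Fzd6), 1 at Lrp6, 3 in the destruction complex (2 at Gsk3b and 1 at Apc), 1 at Tcf7l1 and 2 at the inhibitors Dkk2 and Dkk3. The ligands, the role with the lowest HMGA2 ratio, thus had 5 of their 23 HMGA2 peaks overlapped by γ-H2AX. The 2 at Wnt5b overlapped the same γ-H2AX peak. Length-matched numbers of overlaps were not counted by role. None of the 14 lay within 1 kb of an annotated end, and 9 were inside gene bodies. The shared stretch was from 37 to 154 bp long.

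Examples show how the pairs were placed. At Wnt10b, the HMGA2 peak chr15:98781715-98781915 (score 21.4) and the γ-H2AX peak chr15:98781784-98781994 (24.9) shared 132 bp, 3.61 kb above the upper end of the gene and thus upstream of its start. In Wnt16, chr6:22289731-22289899 (20.9) and chr6:22289841-22290057 (25.5) shared 59 bp, 1.64 kb into the gene. In Tcf7l1, the HMGA2 peak with the score of 37.8 shared 49 bp with a γ-H2AX peak of 21.0. The 2 overlapping peaks in Wnt5b lie in Fbxl14, a gene within the bounds of Wnt5b, and the pair at Dkk3 lies in Usp47, so these are as much at another gene. Beside Fzd6, chr15:39041704-39041877 (30.9) and chr15:39041660-39041843 (23.8) shared 140 bp.

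The γ-H2AX peaks that overlapped ATM were at Fzd2, Lrp6 (2), Gsk3b, Tcf7, Tcf7l1, Tcf7l2 and Dkk3. Of the 8, 3 were at transcription factors and none at ligands, with no length-matched number by role to set beside them. HMGA2 peaks that overlapped ATM were at Wnt5b and Lrp6. With HMGA2 and γ-H2AX, 14 HMGA2 peaks overlapped a γ-H2AX peak, 19 had one within 200 bp and 39 had one within 1 kb. With HMGA2 and ATM these numbers were 2, 3 and 19, and with γ-H2AX and ATM 8, 10 and 21. Genes of like length gave 9.46 HMGA2 peaks with a γ-H2AX peak of the same gene within 200 bp and 24.9 within 1 kb, so the ratios were 2.01 (1.21 to 3.14) and 1.57 (1.12 to 2.14), lower than the 2.93 for overlap by point estimate. For HMGA2 with ATM they were 0.436 (0.0899 to 1.27) within 200 bp and 1.03 (0.621 to 1.61) within 1 kb. For γ-H2AX with ATM they were 1.33 (0.639 to 2.45) and 1.11 (0.687 to 1.70), so both pairs with ATM had intervals that include 1.

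Median scores at the pathway were close to those of the whole lists. The median over the pathway peaks was 23.8 for HMGA2 (whole list 23.8), 23.8 for γ-H2AX (23.6) and 23.8 for ATM (23.6). Scores of 30 or more were reached by 12 HMGA2 peaks (8.76%, whole list 11.6%), 21 γ-H2AX peaks (12.7%, 10.3%) and 13 ATM peaks (11.2%, 10.2%). The highest HMGA2 scores were at Tcf7l1 (37.8), Dvl2 (36.1) and Lrp6 (36.0), the highest γ-H2AX scores at Wnt6 (44.4), Dkk3 (42.4) and Gsk3b (40.1), and the highest ATM scores at Apc (47.9), Lef1 (41.1) and Dkk2 (38.6). The whole lists reach 641, 670 and 494, far above the highest at the pathway.

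Other genes of the pathway, 57 in all, were counted in the same way. They comprise secretion factors, R-spondins and their receptors, kinases, further inhibitors, nuclear partners of β-catenin and planar polarity genes. HMGA2 peaks were at 45 of them against a length-matched number of 45.3, γ-H2AX at 47 against 47.9 and ATM at 48 against 47.0. Within 1 kb of an end the counts were 11, 12 and 10, against 11.4, 14.3 and 9.77. In peaks, HMGA2 had 258 (0.940, 0.829 to 1.06), γ-H2AX 322 (1.18, 1.06 to 1.32) and ATM 212 (0.970, 0.844 to 1.11). In this list 9 HMGA2 peaks overlapped γ-H2AX against 8.89 for genes of like length, while 13 γ-H2AX peaks overlapped ATM against 7.29.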

How the data were processed

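ChIP-seq peaks of 3 Hmga2 wt MEF libraries were used, 1 each for HMGA2, γ-H2AX and ATM. Per the labels, the authors called peaks with MACS14 without its model, with 0.01 as the p threshold and shift size set to 30 bp. HOMER, SAMtools, Bowtie2, Trimmomatic and mm10 are named in the submitters' processing notes. Which control was used for the calls is not given in the sources used here. The deposited lists hold 152834, 124947 and 119570 peaks, each with the authors' score; the depth of the libraries was not used. The deposited promoter lists (unit other) hold only starts and ends, and how they were chosen is not stated. The knockout and input libraries, a deposited histogram and plotting settings were not analysed here.

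A peak was counted when it shared 1 bp or more with a gene body or with windows of 1 kb and 5 kb on both sides of either annotated end. Numbers for genes of like length are means over the 1000 coding genes nearest in log length, without the 48 genes and the 57 other Wnt genes. Intervals are exact 95% Poisson intervals. Numpy 2.4.6, pandas 2.3.3 and scipy 1.17.1 were used; counts were checked against bedtools, with no gene differing, and the code was tested on simulated data. The annotation used has gene bounds without exons or UTRs. Promoters came from RefSeq. Genes were named by a rule: those with a peak within 1 kb of an end, with all 3 antibodies, with overlapping peaks, with a promoter list region, with the 3 highest scores, and the 3 longest and shortest. Other genes, such as Wnt5a, Dvl1, Dkk1 and Sfrp2, were named with values outside this rule, with their peak counts known. The promoters of Wnt5b, Wnt11 and Tcf7l2 and the motifs were chosen after the peak positions were seen, as were the windows at starts, the roles without their leading gene, the A+T matching, the stretches to 100 kb and the numbers of like length for peaks near each other. The 48 genes and all lists were chosen with earlier results of these data known.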

Additional observations from a re-analysis of the deposited data

How the results depend on the processing

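Alternatives were windows of 500 bp, 2 kb and 10 kb, peaks with scores of at least 25 or 30, peak centres or 50% of a peak inside, 200 or 4000 genes of like length, lists cut to equal length and, chosen after seeing the data, those named in the methods. Of the alternative values, 287 were labelled as unchanged and 15 as moved. Ratios were labelled by the interval of the reported ratio, and plain counts by their fold difference from the reported count. Groups with few peaks have wide intervals, so an unchanged label says little there. With scores of 30 or more, the ratios of genes with a peak to the number of like length became 0 for HMGA2 and 0 for ATM within 1 kb, 0.698 for γ-H2AX and 0.797 for ATM within 5 kb, each over few peaks. With scores of 25 or more, the peak ratio was 0.328 for HMGA2 at ligands (5 peaks), 0 for HMGA2 and ATM at Ctnnb1 and 0 for ATM at Dishevelled genes. Without the gene with the most peaks it was 0.732 for HMGA2 in the destruction complex, 0.487 for HMGA2 at TCF/LEF factors and 0 for ATM at Dishevelled genes. The cause was not tested beyond the smaller number of peaks. With a partner within 1 kb in place of overlap, peaks of the antibody named first numbered 39 (HMGA2 with γ-H2AX), 19 (HMGA2 with ATM) and 21 (γ-H2AX with ATM). ATM peaks within 1 kb of a start were at 3 of the 34 genes with a listed start. Those within 1 kb of an end were at 10 of all 48 genes. The 10 include Wnt10a and Fzd2, which have no listed start, so these counts cover unlike sets of genes. All others of the 10 have a listed start, but only Wnt11 and Tcf7l1 among them had an ATM peak within 1 kb of a start. No paired analysis was possible because each antibody and genotype had 1 library, and for the same reason no library could be left out. Most scores lie near the threshold, and 1 library per antibody gives no measure of how many of these peaks another library would find.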
